A study of Mus musculus with 48 samples.

Results

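The cortical microRNAs (miRNAs) of Tg2576 mice were compared between 17 and 10 months of age. The members were chosen by measurement alone: each mouse miRNA on the array (1023 in all) was taken if any of its probes was marked well above background on 2 or more of the 3 arrays of an age, and 287 were. The comparison used 6 of the 48 arrays of the series, 3 from each age. Tg2576 mice carry human amyloid precursor protein (APP) with the Swedish mutation, driven by the hamster prion protein promoter, and all 6 samples were male Tg2576 brain cortex (strain Tg(APPSWE)2576Kha), so that the groups shared the transgene and differed in age. The submitters described 10 months as an early phase and 17 months as a plateau of amyloid-β (Aβ) accumulation. Male C57BL/6J wild-type (WT) cortices and Tg2576 whole brains of the same ages, 3 arrays per group, served for comparison. The submitters give 3 mice per group. All values are log2 of the signal after each array was divided by its 75th percentile over 402 probes detected throughout the 24 miRNA arrays, with a floor at -5.67. Arrays of one age correlated with r between 0.953 and 0.998 over the miRNAs, and 272 to 305 mouse miRNAs were detected per array at 10 months against 246 to 275 at 17 months.

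MiRNAs are short RNAs that guide Argonaute proteins to messenger RNAs, mostly through bases 2 to 8 of the miRNA (the seed), and lower the stability or translation of the bound messenger. MiRNAs with the same seed are grouped into families because they can bind many of the same sites. In the brain some miRNAs mark cell types: miR-124 and miR-9 are abundant in neurons and their progenitors, miR-219 and miR-338 drive oligodendrocyte maturation, and miR-132 and miR-212 are induced by neuronal activity.

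The 3 arrays of 10 months lay on one slide and the 3 arrays of 17 months on another, for miRNA and mRNA arrays alike. Age and slide therefore cannot be told apart within Tg2576 cortex. The slides also held WT cortex arrays, namely 2 WT arrays of each age on the slide of the 10-month Tg2576 arrays and 1 WT array of 17 months on the slide of the 17-month Tg2576 arrays. The difference between these slides in WT mice of 17 months is given beside the results.

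Of the 287 miRNAs, 26 passed the threshold (limma, adjusted p under 0.05; 9.06% called). At 17 months 5 of them were higher (1.74%) and 21 were lower (7.32%). This split depended on the scaling and the arrays in the model: it was 13 and 13 with scaling to the median, 8 and 13 with scaling over the probes of the 6 arrays, and 13 and 13 with all 24 arrays in 1 model. The called differences were small, from 0.17 to 0.77 in size on the log2 scale, and 0 of 26 reached 2-fold. For these 26 the 3 arrays of one age never overlapped those of the other, as did 31% of all 287 miRNAs. The count depended on single arrays: it was 0 without 10-month replicate 1 and 1 without 17-month replicate 1, 10 without 10-month replicate 2, 7 without 10-month replicate 3, 12 without 17-month replicate 2 and 29 without 17-month replicate 3. Scaling to all probes of the array moved the median of the miRNAs detected on all 6 arrays up by 0.46 and gave 102 higher and 0 lower calls. That scaling changes an array by 1 factor, so it moved all differences above the floor by nearly the same amount. Taking the shift off therefore returned the directions of the 26 by construction and is no test of them. Of the 26, 5 kept their call. Quantile normalization (median up by 0.11) gave 0 calls, with 24 of the 26 in the same direction, and the authors' own log2 values (median up by 0.16) gave 1.

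The mature sequences of the called miRNAs that matched a RefSeq entry by name (15 of 26) showed which of them share a seed. Those of the higher miRNAs come first, written 5′ to 3′ with the seed in capitals. Among them 2, miR-98 and let-7g, carry the seed of the let-7 family.
miR-219-5p: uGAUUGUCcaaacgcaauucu
miR-1895: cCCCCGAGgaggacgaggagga
miR-1224: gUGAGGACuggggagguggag
miR-98: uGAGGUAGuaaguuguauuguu
let-7g: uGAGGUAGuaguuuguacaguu

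Some lower miRNAs are shown with family members that share their seed, since the families did not move as one. The miR-30 family is given by miR-30c, miR-30a and miR-30e, and miR-212-3p with its seed partner miR-132. The others shown (miR-9, miR-181a, miR-484, miR-690 and miR-138-1*, the 3′ arm of the miR-138-1 hairpin) have seeds of their own among the 40 sequences read. So do miR-186, miR-125a-5p and miR-138, whose smaller falls are given without the sequence. The 40 do not hold all family members. By name, miR-181c is a relative of miR-181a and miR-125b-5p of miR-125a-5p. They differed by -0.08 and -0.02 (adjusted p = 0.617 and 0.913).
miR-30c: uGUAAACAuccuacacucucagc
miR-30a: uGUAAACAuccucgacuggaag
miR-30e: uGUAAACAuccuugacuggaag
miR-212-3p: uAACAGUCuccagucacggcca
miR-132: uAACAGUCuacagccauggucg
miR-9: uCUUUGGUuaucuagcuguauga
miR-181a: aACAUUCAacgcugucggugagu
miR-484: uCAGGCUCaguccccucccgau
miR-690: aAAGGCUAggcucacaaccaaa
miR-138-1*: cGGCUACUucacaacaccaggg

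MiR-219-5p had the largest rise among the called miRNAs. This miRNA represses genes that hold oligodendrocyte precursors back from differentiation. It stood at 0.27, 0.49 and 0.43 on the 10-month arrays and at 1.34, 1.34 and 0.81 on the 17-month arrays, and the lowest 17-month array was above the highest 10-month array. The rise was 0.77 ± 0.16 (SE), or 1.70-fold (adjusted p = 0.0468). It was lost without any single array except 17-month replicate 3, without which it was 0.94 (adjusted p = 0.00661). WT cortex stood at 0.83, 0.64 and 0.37 at 10 months and at 0.25, 0.43 and 0.46 at 17 months, so WT arrays of the 2 ages overlapped. The WT 17-month arrays differed by 0.13 between the slides. With the slide as a term in a model of the 12 cortex arrays the age difference was 0.64 (adjusted p = 0.322). MiR-219-5p is made from hairpins on chromosomes 2 and 17. The mature sequence lies at GRCm38.p6 chr2:29845689-29845709 and chr17:34025052-34025072, both on the minus strand.

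The remaining tested miRNAs of the oligodendrocyte list also had higher values at 17 months, without passing the threshold. MiR-338-3p stood at 1.48, 1.46 and 1.52 at 10 months and at 2.02, 2.12 and 1.71 at 17 months, a difference of 0.46 (adjusted p = 0.0655). MiR-219-3p, from the opposite arm of a miR-219 hairpin, stood at -2.02, -2.15 and -1.98 and then at -1.31, -1.39 and -1.84, a difference of 0.54 (adjusted p = 0.0928). On each of the 3 the lowest 17-month value was that of replicate 3. The list's median difference was 0.54, against 0 over all 287 miRNAs. Of the 3 tested 1 passed, upward, beside 1.74% called higher over all 287. Between the slides in WT mice the 17-month arrays differed by -0.04 for miR-338-3p and by 0.01 for miR-219-3p.

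Messenger RNA arrays of the same groups gave marker genes of oligodendrocytes beside these values. On the mRNA arrays 10.3% of 39132 probes passed the threshold, and the count of 4025 lay between 23 (without 10-month replicate 2) and 1360 (without 10-month replicate 3) when an array was left out. Of 12 oligodendrocyte genes 2 rose and 0 fell, namely Mbp, a main myelin protein (0.83, adjusted p = 0.0233), and Mag, a myelin adhesion protein (0.74, adjusted p = 0.0388). Of 5 genes of oligodendrocyte precursors 3 rose, namely Olig1, Olig2 and Cspg4, by 0.41 to 0.64. Aatk, whose locus holds the miR-338 hairpin, rose by 0.63 (adjusted p = 0.021). The mean of the 12 genes lay between 2.48 and 2.52 on the 10-month arrays and between 2.67 and 3.04 on the 17-month arrays. In a bulk sample, more cells of a type and more RNA per cell cannot be told apart. The part of these cells in the miRNA values was not tested.

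MiR-1895 and miR-1224 rose in Tg2576 cortex, and their values were also higher at 17 months in the other groups. MiR-1895 stood at -0.97, -0.9999 and -0.68 at 10 months and at -0.27, -0.39 and -0.23 at 17 months, a rise of 0.59 ± 0.10 (SE; adjusted p = 0.028). MiR-1224 stood at -2.59, -2.71 and -2.43 and then at -2.13, -1.96 and -2.13, a rise of 0.50 ± 0.09 (SE; adjusted p = 0.0284). Neither pair of groups overlapped. The WT cortex difference was larger, at 0.94 for each of the 2, and the Tg2576 whole brain difference was 0.63 and 0.67, but none of these 4 passed the threshold of its own comparison (adjusted p from 0.107 to 0.465). WT arrays of the 2 ages on one slide differed by 0.60 for miR-1895 and 0.73 for miR-1224, from 2 arrays of each age and without a test. MiR-1224 lies within Vwa5b2, whose mRNA differed by 0.29 (adjusted p = 0.171).

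The let-7 family had 2 of its 9 tested members higher and 0 lower, beside 1.74% higher and 7.32% lower over all 287 miRNAs. Let-7 miRNAs are abundant in mature neurons and restrain growth and cell cycle genes. MiR-98 stood at -1.39, -1.33 and -1.44 at 10 months and at -1.13, -1.06 and -1.07 at 17 months and rose by 0.30 ± 0.05 (SE; adjusted p = 0.0267). Let-7g stood at 2.83, 2.84 and 2.78 and then at 2.97, 2.99 and 2.98 and rose by 0.17 ± 0.04 (SE; adjusted p = 0.0496). On both the 17-month arrays were all above the 10-month arrays. The other seven differed by -0.02 (let-7b) to 0.14 (let-7i), and the family median was 0.11. The WT 17-month arrays differed between the slides by 0.22 for miR-98 and by 0.23 for let-7g. With the slide as a term in the 12 cortex arrays miR-98 was at 0.08 and let-7g at -0.06, on the other side of 0. Quantile normalization also turned let-7g, to -0.02.

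**Figure D1:**
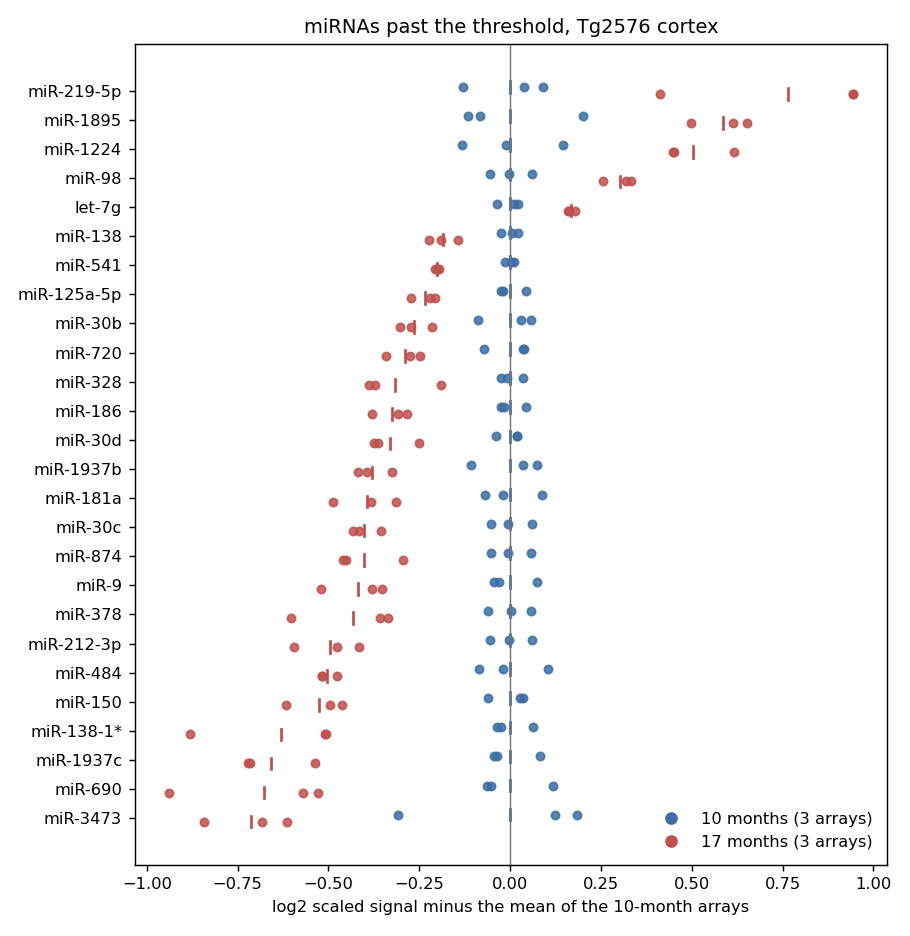
The 26 called miRNAs in Tg2576 cortex, 1 row each, as log2 scaled signal minus the mean of the 10-month arrays. Points are arrays (blue 10 months, red 17 months) and short bars are group means; no row overlaps, and no mean reaches a difference of 1.

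Members of the miR-30 family, which share the seed shown above and are broadly expressed, were among the lower miRNAs. MiR-30c fell from 1.17, 1.10 and 1.06 at 10 months to 0.69, 0.75 and 0.68 at 17 months, by 0.40 ± 0.05 (SE; adjusted p = 0.0148). MiR-30d fell by 0.33 (adjusted p = 0.0267) and miR-30b by 0.26 (adjusted p = 0.0448). MiR-30a and miR-30e, which have the same seed, differed by -0.01 and -0.07 (adjusted p = 1 and 0.333). In all, 3 of 5 members fell and 0 rose, with a median of -0.26, beside 7.32% called lower over all 287 miRNAs. The WT arrays gave miR-30c at 1.07, 1.004 and 1.05 at 10 months and at 1.10, 1.18 and 0.67 at 17 months. The WT value of 0.67 came from the array on the slide of the 17-month Tg2576 arrays and lay at their level. With the slide as a term miR-30c was at 0.07 in the 12 cortex arrays and at -0.01 in all 24 arrays, and neither passed the threshold. Nfyc, the host of the miR-30c-1 and miR-30e hairpins, differed by 0.11 at the mRNA level (adjusted p = 0.441).

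The neuron-enriched list had 18 tested members, of which 3 fell and 0 rose, beside 7.32% lower and 1.74% higher over all 287 miRNAs. Its median was -0.10, and 15 of the 18 differences were below 0. MiR-212-3p stood at -1.79, -1.91 and -1.86 at 10 months and at -2.33, -2.45 and -2.27 at 17 months, and fell by 0.50 ± 0.06 (SE; adjusted p = 0.0175). Its partner miR-132, from the same locus on chromosome 11, differed by -0.21 (adjusted p = 0.152). MiR-9 stood at 1.76, 1.66 and 1.64 and then at 1.31, 1.17 and 1.34, and fell by 0.42 ± 0.06 (SE; adjusted p = 0.0267). MiR-138, a regulator of dendritic spine size, fell by 0.19 (adjusted p = 0.0468), and the opposite arm of its hairpin, miR-138-1*, fell by 0.63 (adjusted p = 0.0284). MiR-124 differed by -0.15 (adjusted p = 0.0928) and miR-128 by -0.01. On the mRNA arrays 11 of 11 cortical neuron genes were tested, 1 rose (Bcl11b, 0.50) and 0 fell, a share near the 10.3% called over all mRNA probes. The mean of those genes ranged from 0.94 to 1.35 at 10 months and from 1.09 to 1.45 at 17 months.

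For miR-212-3p, WT cortex stood at -1.76, -1.88 and -2.26 at 10 months and at -1.84, -1.83 and -2.26 at 17 months. The 17-month value of -2.26 came from the WT array on the slide of the 17-month Tg2576 arrays, and the 10-month value of -2.26 from an array on a slide that held no Tg2576 cortex array. The other 4 WT arrays, all on the slide of the 10-month Tg2576 arrays, lay between -1.88 and -1.76. These are single arrays. The Tg2576 age difference with the slide as a term was -0.07 (adjusted p = 0.792), against -0.50 without it. The slide term itself was not tested.

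MiR-3473 and miR-690 had the largest falls. MiR-3473 stood at -4.02, -3.53 and -3.59 at 10 months and at -4.39, -4.32 and -4.56 at 17 months, and fell by 0.71 ± 0.15 (SE; adjusted p = 0.0448). MiR-690 stood at -1.92, -1.73 and -1.91 and then at -2.38, -2.42 and -2.79, and fell by 0.68 ± 0.13 (SE; adjusted p = 0.0321). Of the 26 called miRNAs these were the ones whose WT difference between slides had the opposite sign (0.25 and 0.24). WT arrays on 1 slide differed by -1.07 between the ages for each of them. In WT cortex as a whole miR-690 differed by -0.89 (adjusted p = 0.0613) and miR-3473 by -0.71 (adjusted p = 0.761). With the slide as a term in the 12 cortex arrays they were at -0.96 for miR-3473 and at -0.92 for miR-690, without passing the threshold (adjusted p = 0.322 and 0.312). Fgf12, in whose locus the miR-690 hairpin lies, differed by -0.26 (adjusted p = 0.0755).

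The remaining lower miRNAs among the 12 largest falls lay between -0.66 and -0.40. MiR-1937c fell by 0.66 (adjusted p = 0.0148) and kept its call in 5 of 6 fits that left out an array. MiR-150, a miRNA of lymphocytes, stood at -4.44, -4.35 and -4.34 at 10 months and at -4.84, -4.99 and -4.87 at 17 months, and fell by 0.53 (adjusted p = 0.0148). MiR-484 stood at -5.04, -5.17 and -5.23 and then at -5.62, -5.67 and -5.67, at or near the floor. MiR-378, a miRNA of mitochondrial metabolism, miR-874 and miR-181a fell by 0.43, 0.40 and 0.40. Smaller falls were those of miR-1937b, miR-186, miR-328, miR-720, miR-125a-5p and miR-541, from 0.38 down to 0.20. The entry for miR-720 has since been removed from miRBase as a likely transfer RNA fragment.

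**Figure D2:**
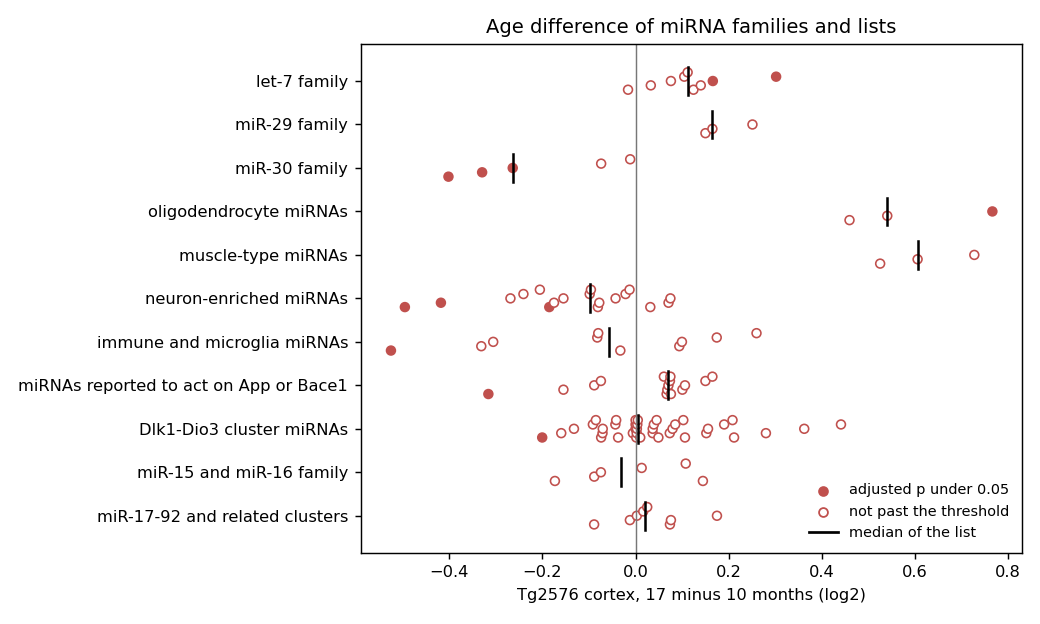
Age differences in Tg2576 cortex (17 minus 10 months, log2) of the tested members of 11 families and lists; filled points passed adjusted p under 0.05 and black bars are medians. All 5 miR-30 points lie below 0, 8 of the 9 let-7 points above 0, and no list has calls in both directions.

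Between the slides, the WT arrays of 17 months moved in the direction of the Tg2576 age difference for 24 of the 26 called miRNAs. WT arrays of the 2 ages within one slide did so for 16, and Tg2576 whole brains for 13. The share of all tested miRNAs that did so was not counted. Over 257 miRNAs, called or not, the Tg2576 cortex age difference correlated with the WT slide difference (Pearson 0.68, Spearman 0.36). With the WT age difference within one slide the values were 0.51 and 0.19. With the Tg2576 whole brain age difference they were 0.80 and 0.44, over 256 miRNAs. The labels do not say whether cortex and whole brain arrays of one number came from the same mouse. Their deviations from the group means correlated across miRNAs at 0.69 and 0.77 for numbers 2 and 3 at 10 months and at 0.91 and 0.95 at 17 months, and at -0.71 and -0.24 for number 1. With the slide as a term in the 12 cortex arrays 19 of the 26 kept their direction and 0 passed the threshold (41 of 287 at an unadjusted p under 0.05). In all 24 arrays 20 kept their direction and 0 passed (37 at an unadjusted p). Those that turned in the 12 arrays were let-7g, miR-125a-5p, miR-138, miR-30c, miR-328, miR-484 and miR-541. In the 24 arrays these were let-7g, miR-125a-5p, miR-138, miR-30b, miR-484 and miR-541. The slide difference rests on 1 WT array against 2 and includes the spread between mice.

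**Figure D3:**
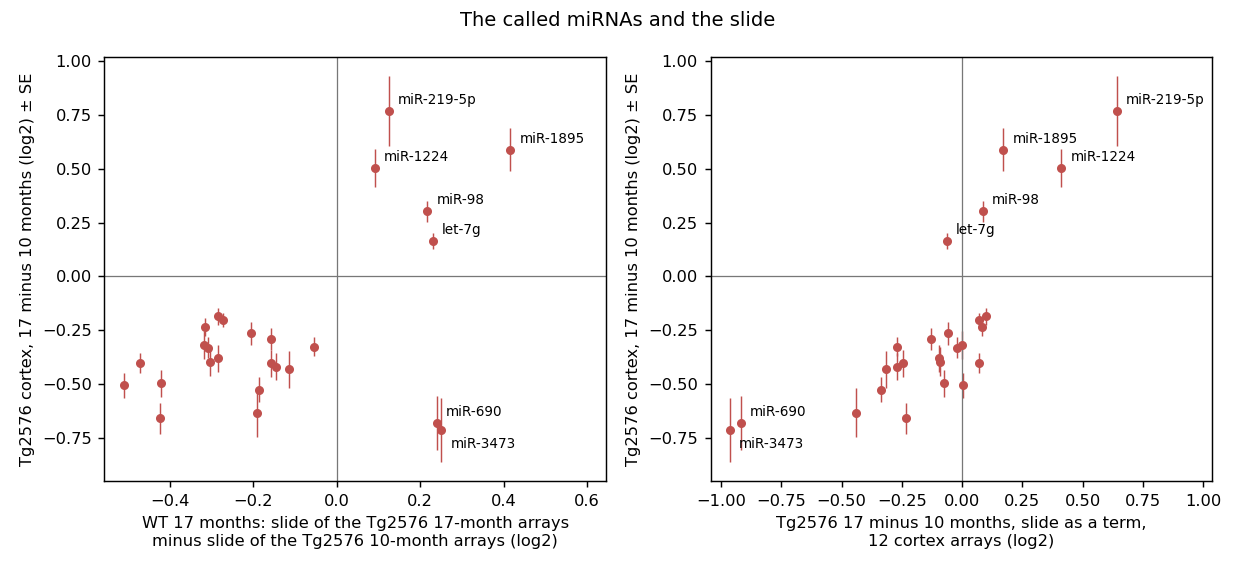
Age difference of the 26 called miRNAs in Tg2576 cortex (vertical axis, log2 ± SE) against the WT 17-month difference between the 2 slides (left) and against the age difference with the slide as a term (right). On the left 24 points lie where both have the same sign, the others being miR-690 and miR-3473; on the right miR-3473 and miR-690 lie near -0.96 and -0.92, miR-219-5p at 0.64 and let-7g at -0.06, across 0.

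Several miRNAs had high values at 17 months without overlap but did not pass the threshold. MiR-34a, a target of p53 that rises in aging tissues, stood at 0.47, 0.35 and 0.65 at 10 months and at 1.43, 1.401 and 0.89 at 17 months, a difference of 0.75 (adjusted p = 0.0572). The WT slide difference was 0.60, and with the slide as a term in the 12 cortex arrays it was at 0.15. The muscle-type miRNAs miR-133b, miR-133a and miR-1 differed by 0.73, 0.61 and 0.53 (adjusted p from 0.0928 to 0.174), all 3 at low signal, with family means of -4.49 to -4.44 at 10 months and of -3.64, -3.57 and -4.29 at 17 months. MiR-598 differed by 0.30 (adjusted p = 0.0836). The 3 members of the miR-29 family, whose reported targets include Bace1, differed by 0.15 (miR-29a), 0.165 (miR-29b) and 0.25 (miR-29c), with adjusted p from 0.0662 to 0.0928.

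Of 15 tested miRNAs reported to act on App or Bace1, 1 fell (miR-328, by 0.32, adjusted p = 0.0448) and 0 rose, a share near the 7.32% called lower over all 287 miRNAs. Their median was 0.07. MiR-328 was at 0.000418 with the slide as a term in the 12 cortex arrays. Of 10 tested immune and microglia miRNAs 1 fell (miR-150) and 0 rose, also close to that share. MiR-21, which rises in reactive glia, stood at 0.99, 0.93 and 0.98 and then at 1.23, 1.33 and 1.12, a difference of 0.26 (adjusted p = 0.0655). MiR-146a, induced by inflammatory signalling, differed by 0.17 (adjusted p = 0.182), and miR-223, a myeloid miRNA, by -0.31 (adjusted p = 0.112). On the mRNA arrays 3 of 10 tested genes of plaque-associated microglia rose, Cst7 by 2.59, Itgax by 2.39 (well above background on 1 of 3 arrays at 10 months) and Ccl6 by 1.01, and 0 fell. Over all mRNA probes 10.3% were called and 38.2% did not overlap between the ages, and of these 10 genes 7 did not overlap. Of the 10 differences 8 were above 0, and Lpl and Spp1 were at -0.14 and -0.28. The mean of the 10 genes was -0.13, -0.30 and -0.29 at 10 months and 0.41, 0.26 and 0.64 at 17 months, without overlap. The largest differences in that mean were those of Cst7 and Itgax.

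Among the 39 tested miRNAs of the imprinted Dlk1-Dio3 cluster 1 fell (miR-541) and 0 rose, with a median of 0.005. Over all 287 miRNAs 7.32% were called lower. No member passed in the clusters of miR-17 and its relatives (8 tested), the miR-15 and miR-16 family (6), the Sfmbt2 cluster (5 of 61 on the array tested), the vascular (3), the choroid plexus (2) and the neuroendocrine (2) miRNAs or the miR-34 and miR-449 family (3). None of the 5 Hox cluster miRNAs was detected on 2 or more arrays of an age. MiR-451, which is abundant in red blood cells, stood at -1.06, -1.49 and -1.16 at 10 months and at -2.09, -3.61 and -1.91 at 17 months, a difference of -1.30 (adjusted p = 0.158). The red blood cell genes Hba-a1 and Alas2 differed by -1.95 and -1.40 on the mRNA arrays (adjusted p = 0.134 and 0.225).

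The miR-200 and miR-183 families had the largest differences between ages, and these rested on which arrays carried them. MiR-200a, miR-200b and miR-429 lie together on chromosome 4 and miR-200c and miR-141 on chromosome 6, and they restrain Zeb1 and Zeb2 in epithelial cells. MiR-183, miR-182 and miR-96 share 1 cluster on chromosome 6 and are known from sensory cells. MiR-200a stood at 1.61, 1.34 and -1.42 at 10 months and at the floor of -5.67 on 17-month replicates 1 and 2, but at 0.25 on replicate 3. MiR-96 stood at 1.14, 0.91 and -1.79, then at the floor on replicates 1 and 2 and at -0.04. The ages overlapped for all 8 miRNAs. The family means for miR-200 were 0.38, 0.16 and -2.52 at 10 months and -5.67, -5.67 and -0.96 at 17 months. The differences ran from -4.20 (miR-200a) to -1.16 (miR-182), with adjusted p from 0.219 to 0.261. Without 17-month replicate 3 the differences of miR-200a, miR-200b, miR-429, miR-183 and miR-96 were -6.18 to -5.28 and passed the threshold, with both remaining 17-month arrays at the floor. Both arrays then held the same set value, so that age had no spread. These differences are distances to the floor and not measured sizes, and passing in that fit cannot decide whether the ages differed. Without 10-month replicate 3 miR-182 passed, at -1.81 (adjusted p = 0.0298), and with any of the other arrays left out none of the 8 did.
miR-200a: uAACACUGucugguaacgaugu
miR-200b: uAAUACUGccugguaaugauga
miR-183: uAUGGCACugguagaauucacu
miR-96: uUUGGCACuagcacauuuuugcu

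On the mRNA arrays, genes of the olfactory bulb were high and low on arrays of the same numbers. The labels tie no number to a mouse, so miRNA and mRNA arrays of one number may or may not share an animal. Their mean over 11 genes was 1.31, 1.47 and -0.05 on the 10-month arrays and -1.62, -1.07 and 0.51 on the 17-month arrays. All 11 differences were below 0, with a median of -1.67, and 0 passed the threshold. Doc2g, Eomes and Tbx21, which mark olfactory bulb neurons, differed by -2.08, -2.69 and -1.67 (adjusted p = 0.0862, 0.154 and 0.151). Eomes was well above background on 3 of 3 arrays at 10 months and on 2 of 3 at 17 months. Over all mRNA probes 10.3% were called, and most lists of other tissues and cells had 1 call or none. Of 6 olfactory epithelium genes 1 rose (Adcy3, by 0.46) and 0 fell, with 3 differences above 0 and 3 below. Those below were Omp (-2.70), S100a5 (-2.335) and Stoml3 (-0.94). The mean of the 6 was -0.84, -0.93 and -2.29 on the 10-month arrays and -2.72, -2.59 and -1.27 on the 17-month arrays. Of 9 striatum genes 1 rose, of 5 tested hippocampus genes 2 and of 7 thalamus genes 1. All differences of the striatum, hippocampus and thalamus genes were above 0, with medians of 0.28, 0.40 and 0.90. Of 9 vascular genes 3 rose, of 8 astrocyte genes 1 and of 9 microglia genes 1, with 7, 4 and 7 differences above 0. None of these lists had a call downward. No gene passed among 10 of the choroid plexus, 6 of the cerebellum or 5 of the pituitary, with 8, 3 and 5 differences above 0. The part of tissue other than cortex in the miRNA values was not tested.

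**Figure D4:**
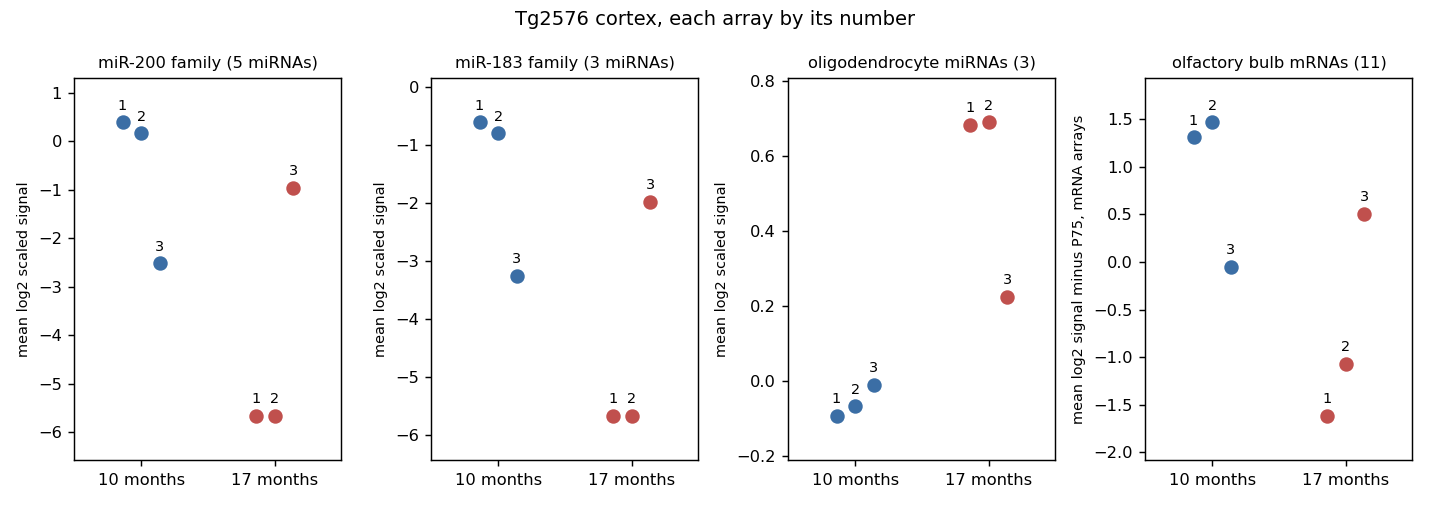
Each Tg2576 cortex array by its number at 10 months (blue) and 17 months (red): mean log2 scaled signal of the miR-200 family, the miR-183 family and 3 oligodendrocyte miRNAs, and the mean log2 signal of 11 olfactory bulb genes on the mRNA arrays. Replicate 3 of 17 months stands nearest to the 10-month arrays in the miRNA panels, and replicate 3 of 10 months is the lowest of its age for the miR-200 and miR-183 families and for the olfactory bulb genes. The labels do not say whether miRNA and mRNA arrays of one number share an animal.

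Whether the age difference depended on genotype was asked with an interaction term in a model of 12 cortex arrays. Of 315 miRNAs 0 passed (30 at an unadjusted p under 0.05; lowest adjusted p = 0.377). MiR-219-5p had the largest positive difference between the genotypes, 0.9998 ± 0.22 (SE; adjusted p = 0.377), with miR-34a at 0.89 and miR-144 at 0.71. MiR-96, miR-183 and miR-200a were at -3.06, -2.98 and -2.94. Without Tg2576 17-month replicate 3 the count was 4, and it was 1 without Tg2576 10-month replicate 3 or without WT 17-month replicate 3. The slides were not balanced between genotypes, and the slide as a random block gave 0. WT cortex itself had 0 of 310 called between the ages (18 at an unadjusted p under 0.05).

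The same question was asked of tissue, over the 12 Tg2576 miRNA arrays of cortex and whole brain. The model took the 12 arrays as independent, although cortex and whole brain arrays of one number may share a mouse. Of 371 miRNAs 0 passed (38 at an unadjusted p under 0.05; 32 of them with the lower age difference in cortex). The lowest adjusted p was 0.0531, for miR-212-3p, whose age difference was -0.50 in cortex and 0.05 in whole brain. MiR-30c (-0.43, adjusted p = 0.0613) and miR-125a-5p (-0.36, adjusted p = 0.0613) came next among the called miRNAs. The extremes were miR-133b, miR-34a and miR-219-5p at 0.69, 0.65 and 0.47 and miR-200a, miR-429 and miR-96 at -2.94, -2.75 and -2.72. Without Tg2576 cortex 17-month replicate 3 the count was 4, and without whole brain 10-month replicate 2 it was 2. Tg2576 whole brain itself had 0 of 368 called between the ages (18 at an unadjusted p under 0.05). Cortex and whole brain were run on different slides at both ages, so tissue and slide cannot be told apart within an age.

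**Figure D5:**
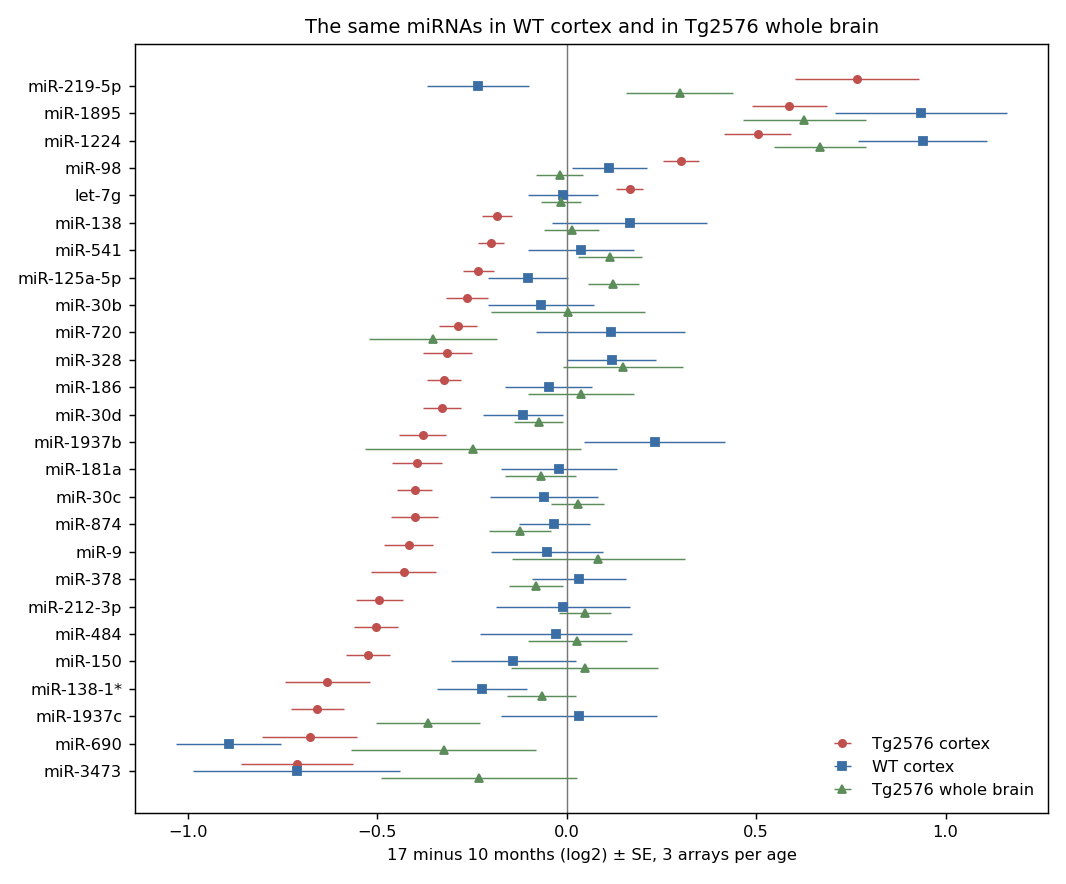
Age differences (17 minus 10 months, log2 ± SE, 3 arrays per age) of the 26 called miRNAs in Tg2576 cortex (red circles), WT cortex (blue squares) and Tg2576 whole brain (green triangles). MiR-1895 and miR-1224 lie above 0 and miR-690 and miR-3473 below 0 in all 3 groups, and miR-219-5p lies below 0 in WT cortex.

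Other called miRNAs lie at the locus of a host gene that was measured on the mRNA arrays. Huwe1, which hosts miR-98, differed by 0.10 (adjusted p = 0.485) and Wdr82, which hosts let-7g, by -0.15 (adjusted p = 0.193). Spaca6, at the miR-125a locus, rose by 0.52 (adjusted p = 0.0364) while miR-125a-5p fell by 0.23. Nup93 at the miR-138-2 locus differed by 0.27 (adjusted p = 0.096) and Zranb2 at the miR-186 locus by 0.02 (adjusted p = 0.914). An mRNA probe measures the spliced host and not the miRNA precursor.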

How the data were processed

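Total RNA of cortex and whole brain was labelled with Cy3 and hybridised to Agilent mouse miRNA and mouse gene expression arrays. The authors scanned the spots (Agilent Feature Extraction 10.7.3.1), and the deposited values are the intensity of each spot and tables of log2 values. Processed intensity per probe was averaged over spots (outlier spots left out), each array was divided by its 75th percentile over the 402 probes detected throughout the 24 miRNA arrays, probes of a miRNA were averaged, and log2 was taken with a floor at -5.67, the median over arrays of the lowest signal well above background. A miRNA was tested if detected on 2 or more arrays of a group. Tests used limma 3.58.1 in R 4.3.3 (lmFit, eBayes, two-sided, Benjamini-Hochberg over all miRNAs tested, threshold 0.05), without a block. The mRNA intensity was scaled by its 75th percentile, and a gene was given by the probe with the highest mean; accessions were named through RefSeq (26056 of 55681 probes). The deposited log2 tables served as an alternative, 18 value columns were not used. Members, lists and tests were chosen with earlier results of these data known. Named were the 12 largest rises and falls among called miRNAs without overlap (filled from an unadjusted p under 0.05), the 3 largest of each interaction, the miR-200 and miR-183 families, and called and brightest list members. The fit was tested on simulated data. The number of arrays, 3 per group, limits the precision; an exact permutation test could not go below p = 0.1.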

Additional observations from a re-analysis of the deposited data

How the results depend on the processing

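The count of 26 miRNAs called between the ages was 102 when scaled to all probes, 0 with quantile normalization, 3 with normexp background correction and quantile normalization together, 1 with the authors' log2 values, 0 without a detection filter, 0 in 1 model of the 12 cortex arrays and 13 by the methods' t-test after Benjamini-Hochberg (69 at p under 0.05, 0 of them past 2-fold). The slide as a fixed block, chosen after seeing the data, gave 0 in 12 and 0 in 24 arrays. Leaving out an array gave 0 to 29. The other alternatives gave 21 to 34; their split was 13 higher and 13 lower with scaling to the median and with all 24 arrays in 1 model, and 8 and 13 with scaling over the probes of the 6 arrays. The genotype interaction count of 0 was 2 with all-probe scaling, 1 with the total signal, 1 with the lower floor and 0 to 4 without an array; the tissue interaction count of 0 was 82, 2, 5 (higher floor), 5 (detected on every array) and 0 to 4. The mRNA count of 4025 was 51 without the filter and 23 to 1360 without an array. With the replicate block, 0 miRNAs and 15 mRNA probes were called; same-numbered 10- and 17-month miRNA arrays deviated against each other (r from -0.905 to -0.474), so the numbers do not pair them, and the cause of these losses was not tested. Scaling to all probes turned 14 called miRNAs upward, miR-125a-5p to 0.225, miR-138 to 0.273, miR-181a to 0.0633, miR-186 to 0.133, miR-1937b to 0.0781, miR-30b to 0.194, miR-30c to 0.0564, miR-30d to 0.129, miR-328 to 0.142, miR-378 to 0.0271, miR-541 to 0.258, miR-720 to 0.17, miR-874 to 0.0561 and miR-9 to 0.0402. Quantile normalization turned let-7g to -0.0153. The slide block turned let-7g (-0.0647 in 12 and -0.00479 in 24 arrays), miR-125a-5p (0.0812 and 0.0507), miR-138 (0.0999 and 0.137), miR-484 (0.00528 and 0.0517), miR-541 (0.0706 and 0.0731), miR-30c (0.0701) and miR-328 (0.000418) in the 12 and miR-30b (0.0498) in the 24. Dim miRNAs at the floor (30 of 287 on all 6 arrays) have no measured difference.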
